A study of Homo sapiens with 12 samples.

Results

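Collagen chains and the proteins that modify, cross-link or bind them were followed across the 4 groups of SNU449 cells. The members were taken by name: every protein-coding gene called COL followed by a type and a chain number, the prolyl 4-hydroxylase subunits P4HA1 to P4HA3, the lysyl hydroxylases PLOD1 to PLOD3, the lysyl oxidases LOX and LOXL1 to LOXL4, the collagen chaperone SERPINH1, and SPARC. Of 15601 genes in the table over all libraries, 31 met this rule, with 21 collagen chains and 10 enzymes or matrix proteins. A further 26 names of the families, among them SERPINH1, COL2A1, COL12A1, P4HA3 and LOXL3, were not analysed here.

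Collagens are the main structural proteins of the extracellular matrix, and each molecule is a triple helix of chains that are encoded by separate genes. In the endoplasmic reticulum, prolyl 4-hydroxylases stabilise the helix and lysyl hydroxylases prepare lysines for sugars and cross-links, and outside the cell lysyl oxidases join the molecules into fibrils and networks. In the liver, fibrillar collagens are chiefly products of activated stellate cells and make up the scar of fibrosis, while type IV collagen forms basement membranes.

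SNU449 is a human hepatocellular carcinoma (HCC) cell line with a mesenchymal-like phenotype. The groups were naïve SNU449 cells with wild-type Axl, Regorafenib (Rego)-resistant SNU449 cells (SNU449-Rego), naïve SNU449-Axl- cells, in which the receptor tyrosine kinase Axl had been knocked out by genome editing (labelled SNU449-Axl-KO), and Rego-resistant SNU449-Axl- cells. Resistance to the tyrosine kinase inhibitor had been raised by stepwise exposure, starting at 50% of the IC50 and ending at 2 x IC50, and Rego was renewed after splitting, so that acquired resistance and presence of the drug cannot be told apart. Each group consisted of 3 QuantSeq 3′ mRNA libraries, described as technical triplicates of 1 cell population. Hence p-values measure only the spread between libraries, and a difference between groups cannot be told apart from a difference between populations. Whether the SNU449-Axl- cells go back to 1 clone was not given in the sources used here.

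The deposited library values were read as scores that correspond to 2 raised to the variance-stabilised, preparation-corrected level, a reading inferred from the study's methods and the values, since the formula is not given in full in the sources used here. They are compared on the scale log2(value + 1), on which a difference of low genes is understated. Below, the values of replicates 1, 2 and 3 are given in this order, and changes are log2 differences of group means with the standard error of the fit (n = 3 libraries per group). A gene was called if its Benjamini-Hochberg adjusted p from limma, over all 15601 genes, was under 0.05. Among the 1721 genes whose mean normalised count was under 3, the values had a median of 25 and a 95th percentile of 33, and values in this range are referred to as the low end. The depth of a library is unknown.

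AXL itself had values of 727, 941 and 715 in naïve SNU449, 1237, 815 and 1271 in SNU449-Rego, 35, 53 and 33 in naïve SNU449-Axl- and 50, 38 and 52 in Rego-resistant SNU449-Axl- cells. The knockout groups thus lay below both Axl-proficient groups without overlap. Of 6 hepatocyte markers only APOA1 was in the table, with values between 19 and 31 at the low end, and ALB, APOB, HNF4A, SERPINA1 and TTR were not analysed here. Of the mesenchymal-like markers VIM, CDH2 and ZEB1, all 3 were present. Of 6 fibroblast and stellate cell markers, ACTA2, FAP and PDGFRB were in the table, and PDGFRA, THY1 and DES were not analysed here.

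Of the 31 members, 14 were called in at least 1 of the 4 comparisons or for the interaction and 17 in none, while 16.6% of all genes were called in at least 1 of these 5 contrasts. To ask how the collagen genes differ with Rego resistance in Axl-proficient cells, SNU449-Rego was compared with naïve SNU449 cells. Here 5 members were called, 3 higher and 2 lower, against 7.81% of all genes (4.31% higher and 3.5% lower). In SNU449-Axl- cells, Rego resistance gave 6 called members, 2 higher and 4 lower, against 4.35% of all genes (2.54% higher, 1.81% lower). Loss of Axl in naïve cells gave 6 called members, all of them higher, against 7.45% of all genes, of which 4.03% were higher and 3.43% lower. Among Rego-resistant cells, loss of Axl gave 1 member higher and 5 lower, against 4.37% of all genes (2.44% higher, 1.93% lower).

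The interaction term, which tests whether the Rego effect differs between the Axl backgrounds, called COL1A1, COL5A2 and COL11A1, all with a more positive effect in Axl-proficient cells. Over all genes 5.87% were called for the interaction, 2.95% in this direction and 2.92% in the other. The comparisons share groups: the naïve SNU449-Axl- libraries enter both the Axl comparison of naïve cells and the Rego comparison of SNU449-Axl- cells, so that a gene set apart in 1 group is called in both.

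The median log2 change of the 31 members was 0.214 with Rego resistance in SNU449, -0.19 with Rego resistance in SNU449-Axl-, 0.243 with Axl loss in naïve cells and 0.031 with Axl loss in resistant cells. The medians over all genes lay between -0.000102 and 0.0139. Regardless of direction, the median size of the change among members was 0.524, 0.236, 0.357 and 0.31 in the same order, and over all genes it was 0.22, 0.207, 0.217 and 0.203. The libraries of the compared groups did not overlap for 10, 11, 11 and 13 of the 31 members, while this held for 27.9%, 29.1%, 27.9% and 28% of all genes.

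**Figure D1:**
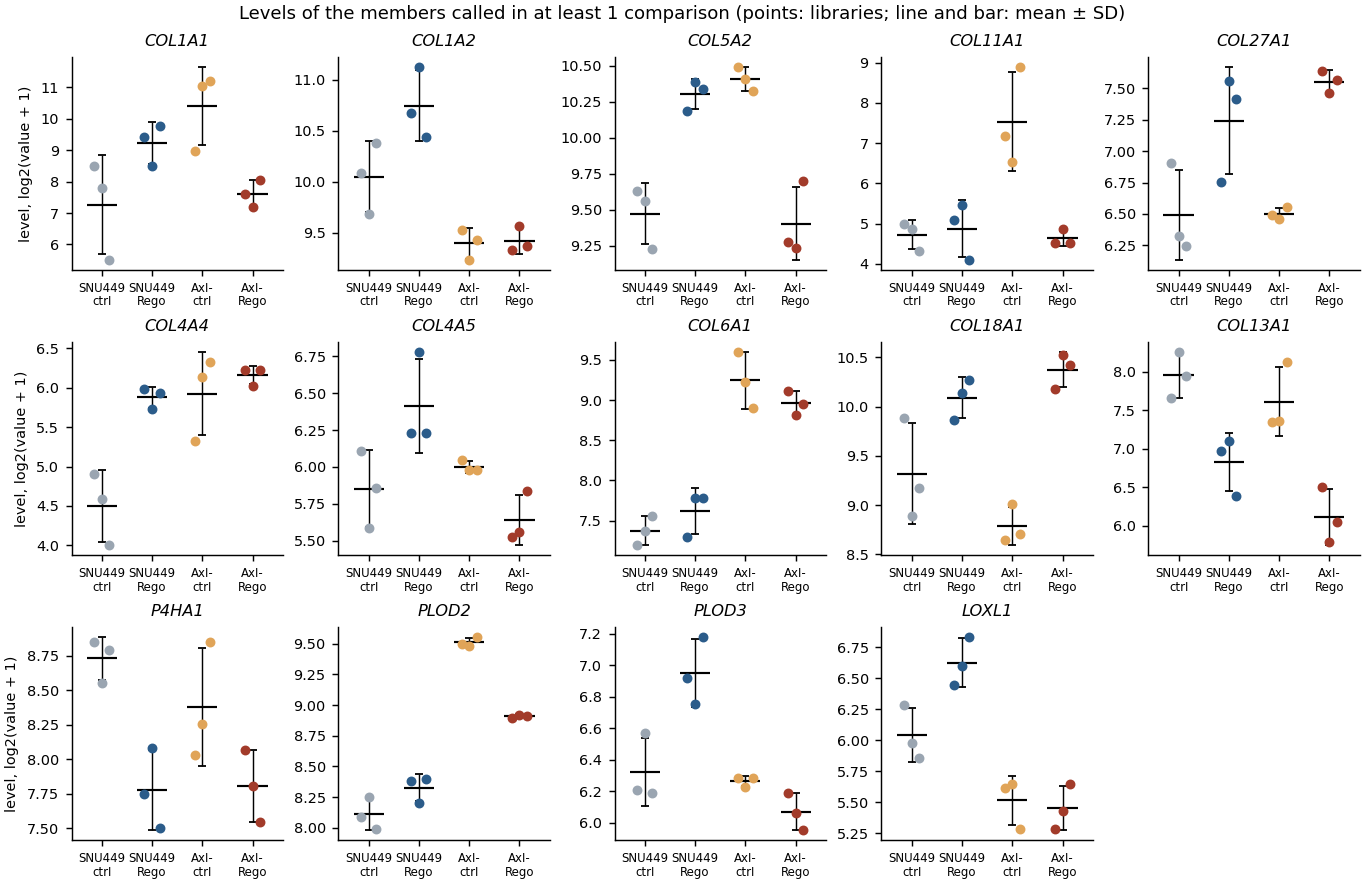
Levels, as log2(value + 1), of the 14 members called in at least 1 comparison. Each point is a library, and the line and bar are the mean and SD of the 3 libraries of a group. COL6A1 and PLOD2 lie higher in naïve SNU449-Axl- libraries than in both Axl-proficient groups, COL11A1 stands out in naïve SNU449-Axl- cells, and the points of COL1A1 are the most scattered.

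Fibrillar collagens, which assemble into the banded fibrils of connective tissue, had 7 members in the table and the largest changes. Of these, 1 was called with Rego resistance in SNU449 (higher), 4 in SNU449-Axl- (1 higher, 3 lower), 3 with Axl loss in naïve cells (all higher) and 2 with Axl loss in resistant cells (both lower), beside 7.81%, 4.35%, 7.45% and 4.37% of all genes. COL3A1, the chain of type III collagen, stayed at the low end with values between 19 and 32 in all libraries.

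COL5A2 (ENSG00000204262.14, chromosome 2, 189031898 to 189225312, minus strand), a chain of type V collagen that starts fibril assembly, was called in all 4 comparisons and for the interaction. Its values were 792, 752 and 599 in naïve SNU449, 1164, 1335 and 1292 in SNU449-Rego, 1438, 1359 and 1279 in naïve SNU449-Axl-, and 619, 602 and 829 in Rego-resistant SNU449-Axl- cells. SNU449-Rego and naïve SNU449-Axl- libraries were thus all above the other 2 groups, and no library of the high groups overlapped with the low groups. COL5A2 rose with Rego resistance in SNU449 by a log2 change of 0.83 ± 0.19 (limma, adjusted p = 0.0103) and fell by 1.004 ± 0.19 in SNU449-Axl- (limma, adjusted p = 0.00477). It was higher after Axl loss in naïve cells by 0.94 (limma, adjusted p = 0.00495), and Axl loss in resistant cells gave a change of -0.90 (limma, adjusted p = 0.0104).

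For COL5A2 the Rego effect differed between backgrounds by 1.83 ± 0.27 on the log2 scale (limma, adjusted p = 0.000499), and this call was kept in each omission of 1 library. The COL5A2 call for Axl loss in naïve cells was likewise kept in each such omission, and the other 3 calls were not. With Rego in SNU449 it was lost without replicate 3 of naïve SNU449 (limma, adjusted p = 0.0614) or replicate 2 of SNU449-Rego (adjusted p = 0.0610). In SNU449-Axl- it was lost without replicate 1 (adjusted p = 0.05003) or 2 (adjusted p = 0.0584) of the resistant cells. For Axl loss in resistant cells it was lost without replicate 1 (adjusted p = 0.0915) or 2 (adjusted p = 0.0948) of Rego-resistant SNU449-Axl- or replicate 2 of SNU449-Rego (adjusted p = 0.0651), and also when libraries were centred on spike-ins (-0.61, adjusted p = 0.0845).

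COL1A1 (ENSG00000108821.14, chromosome 17, 50184101 to 50201632, minus strand) encodes the alpha1 chain of type I collagen, the main fibril protein of scar and bone. Its values were 363, 223 and 44 in naïve SNU449, 690, 361 and 878 in SNU449-Rego, 498, 2102 and 2380 in naïve SNU449-Axl-, and 194, 144 and 264 in Rego-resistant SNU449-Axl- cells. Naïve SNU449-Axl- libraries were all above those of naïve SNU449 and of resistant SNU449-Axl- cells, while SNU449-Rego overlapped with naïve SNU449. COL1A1 was higher after Axl loss in naïve cells by a log2 change of 3.14 ± 0.61 (limma, adjusted p = 0.00361) and fell by 2.79 ± 0.61 with Rego resistance in SNU449-Axl- (limma, adjusted p = 0.0129). With Rego resistance in SNU449, the change was 1.97 ± 0.61 and did not pass (limma, adjusted p = 0.0558), and with Axl loss in resistant cells it was -1.63 ± 0.61 (limma, adjusted p = 0.15). The latter was called in the table of the pair of groups (-1.33, limma, adjusted p = 7.9e-05) and without replicate 3 of naïve SNU449 (limma, adjusted p = 0.0146). The difference of the Rego effects was 4.76 ± 0.86 (limma, adjusted p = 0.00268), called in each omission of 1 library.

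Single libraries set much of the size of the COL1A1 changes. Without replicate 3 of naïve SNU449, the change with Axl loss in naïve cells was 1.95 (limma, adjusted p = 0.00999) and that with Rego in SNU449 was 0.78 (adjusted p = 0.343). The call in SNU449-Axl- was lost without replicate 2 (adjusted p = 0.119) or 3 (adjusted p = 0.0939) of the naïve or replicate 1 (adjusted p = 0.0620) or 2 (adjusted p = 0.122) of the resistant SNU449-Axl- cells.

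COL1A2 (ENSG00000164692.19, chromosome 7, 94394895 to 94431227, plus strand), whose chain joins that of COL1A1 in type I collagen, followed COL1A1 in part only. With Rego resistance in SNU449 and with Axl loss in resistant cells, the changes of both genes had the same sign. With Axl loss in naïve cells the signs were opposite. With Rego resistance in SNU449-Axl- the COL1A2 change was 0.03 (limma, adjusted p = 0.969), beside -2.79 for COL1A1. The COL1A2 values were 1082, 823 and 1328 in naïve SNU449, 1631, 2234 and 1387 in SNU449-Rego, 738, 599 and 687 in naïve SNU449-Axl-, and 642, 759 and 660 in resistant SNU449-Axl- cells. Both Axl-deficient groups were below both Axl-proficient groups without overlap. COL1A2 was lower with Axl loss in resistant cells by 1.32 ± 0.22 on the log2 scale (limma, adjusted p = 0.0015), with the call kept in each omission of 1 library. The change with Axl loss in naïve cells was -0.65 ± 0.22 (limma, adjusted p = 0.0777), and with Rego resistance in SNU449 it was 0.70 ± 0.22 (limma, adjusted p = 0.0579). Neither passed the threshold.

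COL11A1 (ENSG00000060718.22, chromosome 1, 102876467 to 103108872, minus strand), a minor fibrillar chain that sets fibril diameter in cartilage, reached 143, 91 and 475 in naïve SNU449-Axl- cells. In naïve SNU449 the values were 31, 28 and 19, in SNU449-Rego 33, 43 and 16, and in Rego-resistant SNU449-Axl- cells 22, 28 and 22. The 3 latter groups were at or near the low end, and all naïve SNU449-Axl- libraries lay above them. COL11A1 was higher by a log2 change of 2.80 ± 0.43 with Axl loss in naïve cells (limma, adjusted p = 0.000594) and fell by 2.89 ± 0.43 with Rego resistance in SNU449-Axl- (limma, adjusted p = 0.000632). The interaction was 3.05 ± 0.61 (limma, adjusted p = 0.00578). All 3 calls were kept in each omission of 1 library, though the naïve SNU449-Axl- libraries themselves spread widely.

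COL27A1 (ENSG00000196739.15, chromosome 9, 114155537 to 114312511, plus strand), a fibrillar chain known from cartilage, had values of 119, 79 and 75 in naïve SNU449, 107, 187 and 170 in SNU449-Rego, 89, 87 and 93 in naïve SNU449-Axl- and 198, 175 and 188 in resistant SNU449-Axl- cells. It rose with Rego resistance in SNU449-Axl- by a log2 change of 1.05 ± 0.23 (limma, adjusted p = 0.0132), without overlap between the groups. In SNU449 the change was 0.75 ± 0.23, with overlap, and did not pass (limma, adjusted p = 0.0535). The call was lost without replicate 2 of naïve SNU449-Axl- (adjusted p = 0.0846) or replicate 1 (adjusted p = 0.0798), 2 (adjusted p = 0.0584) or 3 (adjusted p = 0.0578) of the resistant cells.

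COL5A1, the partner chain of COL5A2, was called in no comparison. Its values were 151, 108 and 26 in naïve SNU449, 172, 110 and 169 in SNU449-Rego, 47, 170 and 168 in naïve SNU449-Axl- and 43, 27 and 72 in resistant SNU449-Axl- cells. Like COL1A1, COL5A1 was lowest in replicate 3 of naïve SNU449 and in replicate 1 of naïve SNU449-Axl- cells within these groups.

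The spread within groups was therefore set beside that of other genes. Over the 20 members with a mean normalised count above 50, the median SD within groups was 0.289 on the log2 scale, against 0.211 over 8189 genes with such counts. COL1A1 had an SD of 1.08, and 99.95% of these genes had a lower SD. For COL5A1 the SD was 0.931 (99.88% lower), for COL11A1 0.737 (99.68% lower), for COL4A1 0.491 (97.8% lower) and for SPARC 0.434 (96.2% lower). At the other end, PLOD2 had an SD of 0.0871, and only 1.75% of the genes had a lower SD.

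In replicate 3 of naïve SNU449, COL1A1 lay 1.78 below its group mean on the log2 scale (deviation -1.78), COL5A1 deviated by -1.502, SPARC by -0.78 and COL4A1 by -0.63. In replicate 1 of naïve SNU449-Axl-, COL1A1 deviated by -1.44, COL5A1 by -1.22, COL4A1 by -0.58 and SPARC by -0.34. COL1A2 was not low there, with deviations of 0.33 and 0.13. Across genes with a mean normalised count above 50, the median size of the deviation was 0.145 and 0.135 in these libraries. The range over the 12 libraries was 0.0947 to 0.146, so that the former was close to its upper end. Across the members with such counts it was 0.238 and 0.295, the highest in a range from 0.0962 to 0.295. Without both libraries, an omission chosen after the values were seen, the COL1A1 change was 2.86 for Axl loss in naïve cells (limma, adjusted p = 2.86e-06), -3.58 for Rego resistance in SNU449-Axl- (adjusted p = 2.85e-08), 0.91 for Rego resistance in SNU449 (adjusted p = 0.0230) and -1.63 for Axl loss in resistant cells (adjusted p = 4.53e-05). The COL5A2 calls for Axl loss in naïve cells (0.67, adjusted p = 0.115) and for Rego in SNU449 (0.65, adjusted p = 0.0609) were lost. What the libraries differ in was not tested. The values had been corrected before, by an effect inferred to follow the replicate number over all groups. Deviations of same-numbered libraries in different groups are thus not independent, and leaving a library out does not undo its part in the correction.

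**Figure D2:**
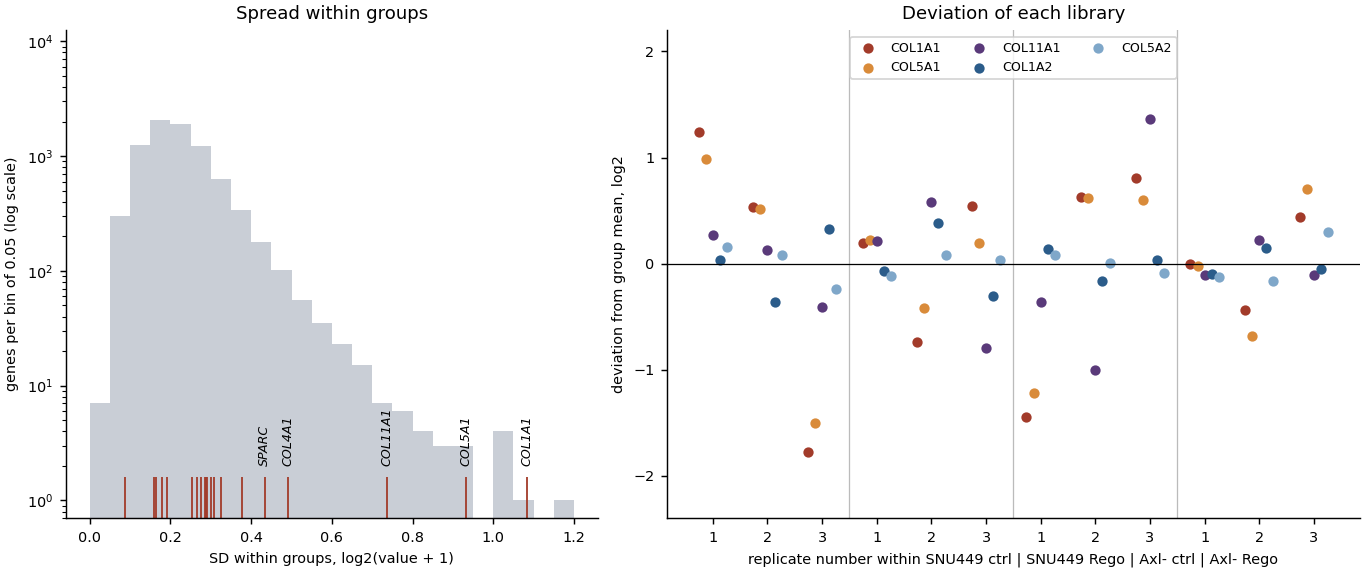
Left, SD within groups of 8189 genes with a mean normalised count above 50 (grey bars, number of genes per bin on a log scale), with red ticks at the 20 members among them. COL1A1 at 1.08 and COL5A1 at 0.931 lie in the upper tail. Right, deviation of each library from its group mean (log2), for 5 fibrillar collagens. COL1A1 and COL5A1 are low in replicate 3 of naïve SNU449 and replicate 1 of naïve SNU449-Axl- cells, and COL1A2 is not.

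Of the fibroblast and stellate cell markers in the table, FAP, a protease of activated fibroblasts, was called in both comparisons with naïve SNU449-Axl- cells, as were COL1A1, COL5A2 and COL11A1. Unlike FAP, COL5A2 was also called higher with Rego resistance in SNU449. The FAP values were 23, 27 and 31 in naïve SNU449, 32, 20 and 21 in SNU449-Rego, 57, 70 and 86 in naïve SNU449-Axl- and 27, 30 and 21 in resistant SNU449-Axl- cells. The log2 change was 1.35 with Axl loss in naïve cells (limma, adjusted p = 0.000999) and -1.41 with Rego resistance in SNU449-Axl- (limma, adjusted p = 0.00116). With Rego resistance in SNU449 the FAP change was -0.17 (limma, adjusted p = 0.734), and with Axl loss in resistant cells 0.11 (limma, adjusted p = 0.853). ACTA2 and PDGFRB were called in no comparison, and with Axl loss in naïve cells their changes were 0.29 (limma, adjusted p = 0.524) and -0.43 (limma, adjusted p = 0.268). The summed values of ACTA2, FAP and PDGFRB ranged from 106 to 125 in naïve SNU449, 96 to 120 in SNU449-Rego, 152 to 166 in naïve SNU449-Axl- and 98 to 106 in resistant SNU449-Axl- cells. The part of these markers in the collagen changes was not tested. The epithelial keratin KRT8 was higher after Axl loss in naïve (0.79, limma, adjusted p = 0.0332) and in resistant cells (1.58, limma, adjusted p = 0.000248). KRT18, the other epithelial marker in the table, was not called with Axl loss in naïve (0.28, limma, adjusted p = 0.593) or resistant cells (0.25, limma, adjusted p = 0.682). EPCAM, CDH1 and KRT19 were not analysed here.

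Type IV collagen forms the mesh of basement membranes, and its 6 genes are arranged as pairs with their starts head to head, so that each pair shares a stretch of promoter. The stretches are shown since in 2 of the 3 pairs only 1 of the genes was measured above the low end. They were read from the plus strand of RefSeq GRCh38.p14, limited to bases outside annotated exons. Capitals mark matches on either strand to the GC box GGGCGG, the CCAAT box, the TATA box TATAAA or the hypoxia response core ACGTG. The COL4A1-COL4A2 stretch is chr13:110307158-110307257, the COL4A4-COL4A3 stretch chr2:227164454-227164623 and the COL4A6-COL4A5 stretch chrX:108439588-108439837. Between the starts of the canonical transcripts lie 126, 418 and 1415 bases. The annotated genes COL4A4 and COL4A6 begin nearer to their partners than these transcripts do, at 227164453 and 108439497.
COL4A1-COL4A2: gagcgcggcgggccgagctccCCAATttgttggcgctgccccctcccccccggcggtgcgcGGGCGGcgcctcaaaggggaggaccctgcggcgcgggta
COL4A4-COL4A3: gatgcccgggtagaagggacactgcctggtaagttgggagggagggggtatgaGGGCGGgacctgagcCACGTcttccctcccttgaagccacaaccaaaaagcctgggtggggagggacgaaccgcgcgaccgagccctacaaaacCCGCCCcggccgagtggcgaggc
COL4A6-COL4A5: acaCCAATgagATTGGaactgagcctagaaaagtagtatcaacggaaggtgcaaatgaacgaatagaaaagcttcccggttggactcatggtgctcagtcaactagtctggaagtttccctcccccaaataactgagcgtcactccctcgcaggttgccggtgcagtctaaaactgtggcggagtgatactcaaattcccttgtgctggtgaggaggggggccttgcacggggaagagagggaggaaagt

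Between COL4A1 and COL4A2, 1 CCAAT box and 1 GC box were found, between COL4A4 and COL4A3 2 GC boxes and 1 hypoxia response core, and in the COL4A6-COL4A5 stretch 2 CCAAT boxes. Such letters are common: of 35116 promoter windows of RefSeq genes, from 250 bases before to 50 bases after a start, 44.95% held the GC box, 34.61% CCAAT, 11.53% TATAAA and 21.41% ACGTG. For the members, 25 of 31 had 32 windows in all, of which 18 held the GC box, 9 CCAAT, 6 TATAAA and 8 ACGTG. COL1A1, COL1A2, COL3A1, COL5A2, COL6A1 and LOXL2 were not matched to a window.

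COL4A1 and COL4A2, which encode the chains found in nearly all basement membranes, were measured well above the low end in all groups, from 447 to 1633 and from 538 to 1156, and neither was called in any comparison. Of the pair COL4A4 and COL4A3, whose chains form the kidney type of network together with COL4A5, COL4A3 was at or near the low end with values between 19 and 36. COL4A4 (ENSG00000081052.14, chromosome 2, 227002714 to 227164453, minus strand) had values of 29, 23 and 15 in naïve SNU449, 62, 52 and 60 in SNU449-Rego, 39, 69 and 79 in naïve SNU449-Axl- and 74, 64 and 74 in resistant SNU449-Axl- cells. Naïve SNU449 was thus at the low end, and the 3 other groups were above it without overlap.

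Solving the authors' mean normalised counts of the 6 pairwise tables for the group means gave 0 for COL4A4 in naïve SNU449, 29.0 in SNU449-Rego, 46.5 in naïve SNU449-Axl- and 51.7 in resistant SNU449-Axl- cells. The solution was held at or above 0, so that 0 is its lower bound and not a measured absence. On the log2 scale of values, COL4A4 rose by 1.38 ± 0.26 with Rego resistance in SNU449 (limma, adjusted p = 0.00234) and by 1.43 ± 0.26 with Axl loss in naïve cells (limma, adjusted p = 0.00217). Both calls were kept in each omission of 1 library. The change with Axl loss in resistant cells was 0.28 ± 0.26 (limma, adjusted p = 0.636), and the interaction did not pass (1.15 ± 0.37, limma, adjusted p = 0.0759).

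In the third pair, COL4A6 was at or near the low end, from 22 to 37, and COL4A5 (ENSG00000188153.14, chromosome X, 108439838 to 108697545, plus strand) was above it. COL4A5 had values of 68, 47 and 57 in naïve SNU449, 74, 109 and 74 in SNU449-Rego, 65, 62 and 62 in naïve SNU449-Axl- and 45, 46 and 56 in resistant SNU449-Axl- cells. SNU449-Rego was highest, and its libraries did not overlap with those of resistant SNU449-Axl- cells. COL4A5 fell by 0.78 ± 0.21 with Axl loss in resistant cells (limma, adjusted p = 0.0429). This call held in 4 of 12 omissions of 1 library only, namely those of naïve SNU449 replicates 1 to 3 and of naïve SNU449-Axl- replicate 1, and in the others the adjusted p was up to 0.246 (without SNU449-Rego replicate 2). It was also lost after centring on spike-in RNAs (-0.48, limma, adjusted p = 0.165). The change with Rego resistance in SNU449 was 0.56 ± 0.21 (limma, adjusted p = 0.121), and the interaction was 0.93 ± 0.30 (limma, adjusted p = 0.0777).

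Type VI collagen forms beaded filaments around cells, and 3 of its chains were in the table. COL6A1 (ENSG00000142156.16, chromosome 21, 45981770 to 46005050, plus strand) had values of 145, 165 and 187 in naïve SNU449, 156, 219 and 219 in SNU449-Rego, 776, 600 and 477 in naïve SNU449-Axl- and 553, 448 and 496 in resistant SNU449-Axl- cells. Every SNU449-Axl- library was above every Axl-proficient library. COL6A1 was higher after Axl loss by a log2 change of 1.87 ± 0.22 in naïve (limma, adjusted p = 3.06e-05) and of 1.34 ± 0.22 in resistant cells (limma, adjusted p = 0.0012). With the replicate block on this table it was the only member called in the same direction with Axl loss in both states, and both calls were kept in each omission of 1 library and under the other settings run.

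COL6A2, whose gene lies next to COL6A1 on chromosome 21 (46098112 to 46132848), was called in no comparison. Its values were 91, 80 and 111 in naïve SNU449, 86, 101 and 134 in SNU449-Rego, 185, 163 and 109 in naïve SNU449-Axl- and 157, 173 and 141 in resistant SNU449-Axl- cells. The resistant groups did not overlap, and 2 of 3 naïve SNU449-Axl- libraries were above all naïve SNU449 libraries. COL6A3, the third chain, ranged from 2908 to 5571 and was called in no comparison. COL7A1, which makes the anchoring fibrils below epithelia, ranged from 18 to 79 and was not called either.

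COL18A1 (ENSG00000182871.16, chromosome 21, 45405165 to 45513720, plus strand) encodes a basement membrane collagen that is the precursor of endostatin. Its values were 946, 475 and 576 in naïve SNU449, 930, 1127 and 1237 in SNU449-Rego, 400, 516 and 416 in naïve SNU449-Axl- and 1157, 1475 and 1375 in resistant SNU449-Axl- cells. In SNU449-Axl- the groups were far apart, whereas in SNU449 replicate 1 of the naïve cells lay above replicate 1 of the resistant cells. COL18A1 was higher with Rego resistance in SNU449-Axl- by a log2 change of 1.59 ± 0.23 (limma, adjusted p = 0.000532), kept in each omission of 1 library.

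In SNU449 the COL18A1 change was 0.77 ± 0.23 at the edge of the threshold (limma, adjusted p = 0.0496). This call was kept in 2 of 12 omissions of 1 library, those of replicate 1 of naïve SNU449 and replicate 1 of naïve SNU449-Axl-, and in the others the adjusted p was up to 0.31 (0.49 without naïve SNU449 replicate 2). It was lost in the table of the pair of groups (limma, adjusted p = 0.136) and with a minimum count of 10 (limma, adjusted p = 0.0515). The difference of the effects between backgrounds did not pass after adjustment (interaction -0.81, 95% interval -1.51 to -0.12, limma, adjusted p = 0.168). The last 1000 bases of COL18A1, which a 3′ library covers, overlap an exon of SLC19A1 on the opposite strand. The strand setting of the counting was not given in the sources used here.

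COL13A1 (ENSG00000197467.17, chromosome 10, 69801880 to 69964275, plus strand) is a transmembrane collagen of cell adhesion sites. Its values were 202, 306 and 246 in naïve SNU449, 125, 136 and 83 in SNU449-Rego, 162, 163 and 280 in naïve SNU449-Axl- and 90, 54 and 65 in resistant SNU449-Axl- cells. In both backgrounds every resistant library was below every naïve library. With Rego resistance COL13A1 fell by 1.14 ± 0.27 on the log2 scale in SNU449 (limma, adjusted p = 0.0119) and fell by 1.502 ± 0.27 in SNU449-Axl- (limma, adjusted p = 0.00299), and the interaction of 0.37 did not pass (95% interval -0.42 to 1.16, limma, adjusted p = 0.662). The call in SNU449 was lost without replicate 2 of naïve SNU449 (adjusted p = 0.0958) or replicate 3 of SNU449-Rego (adjusted p = 0.103). In the table of the pair of groups, the SNU449-Axl- change was -0.98 (limma, adjusted p = 0.00118). COL17A1, a transmembrane collagen of hemidesmosomes, stayed at or near the low end and was not called, and COL21A1, which associates with fibrils, ranged from 24 to 88 and was not called.

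**Figure D3:**
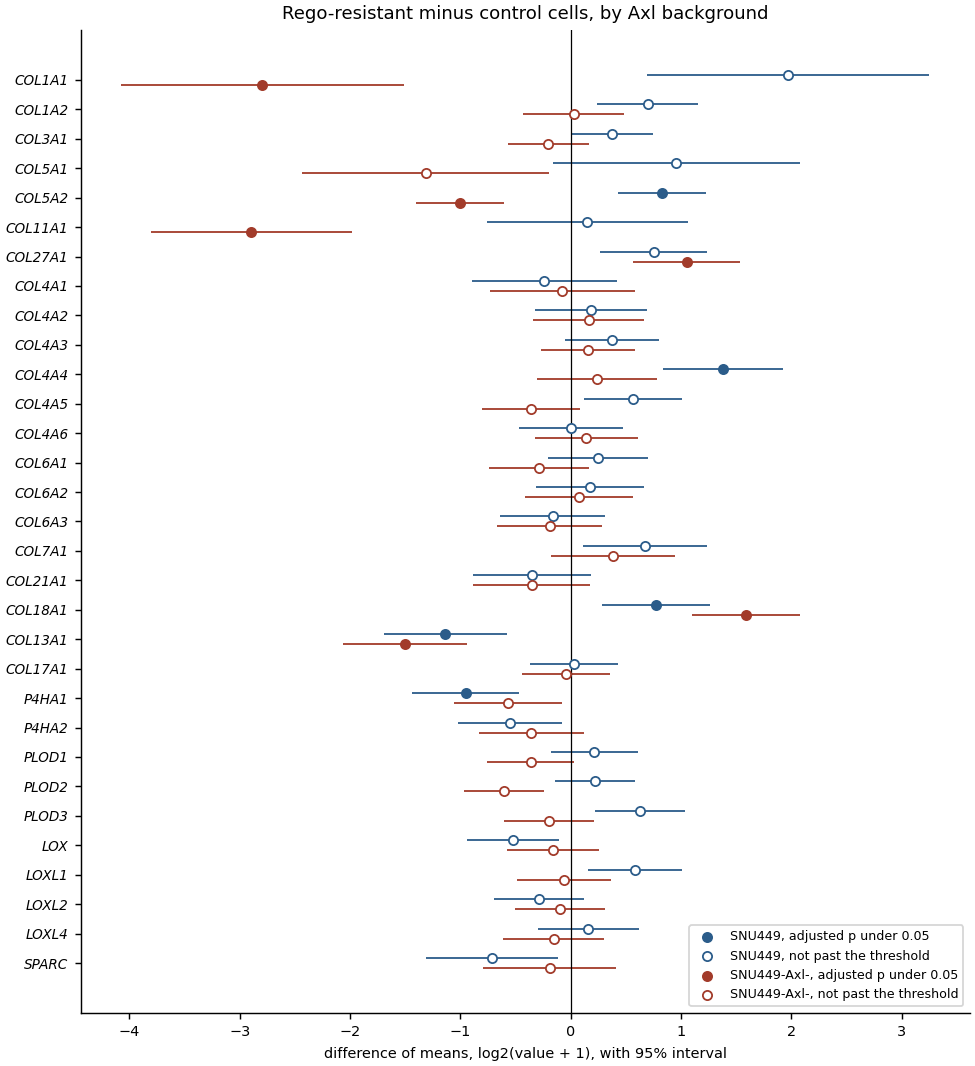
Log2 difference between Rego-resistant and naïve control cells for all 31 members, with 95% intervals, in SNU449 (blue) and SNU449-Axl- cells (red). Filled points have an adjusted p under 0.05. COL5A2 is called at 0.83 in SNU449 and at -1.004 in SNU449-Axl-, COL13A1 is called below 0 in both, and COL1A1 and COL11A1 are called in SNU449-Axl- only.

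Prolyl 4-hydroxylases were represented by the alpha subunits P4HA1 and P4HA2. P4HA1 (ENSG00000122884.13, chromosome 10, 73007217 to 73096974, minus strand) had values of 460, 375 and 441 in naïve SNU449, 214, 270 and 180 in SNU449-Rego, 260, 304 and 461 in naïve SNU449-Axl- and 267, 223 and 186 in resistant SNU449-Axl- cells. The groups did not overlap in SNU449 but overlapped in SNU449-Axl-. P4HA1 fell with Rego resistance in SNU449 by 0.95 ± 0.23 on the log2 scale (limma, adjusted p = 0.0153), and in SNU449-Axl- the change was -0.57 ± 0.23 (limma, adjusted p = 0.183). The call was lost without replicate 1 (adjusted p = 0.0684) or 3 (adjusted p = 0.0522) of naïve SNU449 or replicate 1 (adjusted p = 0.0599) or 3 (adjusted p = 0.106) of SNU449-Rego. P4HA2 ranged from 125 to 263, with 263, 228 and 179 in naïve SNU449 above 152, 141 and 159 in SNU449-Rego, and was called in no comparison.

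Of the lysyl hydroxylases, PLOD2 (ENSG00000152952.12, chromosome 3, 146069440 to 146163653, minus strand), which acts on the ends of the collagen chains where cross-links form, had the tightest replicates. Its values were 272, 303 and 253 in naïve SNU449, 332, 294 and 337 in SNU449-Rego, 720, 715 and 751 in naïve SNU449-Axl- and 474, 484 and 481 in resistant SNU449-Axl- cells. All SNU449-Axl- libraries were above all Axl-proficient libraries, and naïve SNU449-Axl- was above resistant SNU449-Axl-. PLOD2 was higher after Axl loss in naïve cells by a log2 change of 1.40 ± 0.17 (limma, adjusted p = 5.5e-05), kept in each omission of 1 library. The change of 0.58 ± 0.17 with Axl loss in resistant cells (limma, adjusted p = 0.0646) and that of -0.60 ± 0.17 with Rego resistance in SNU449-Axl- (limma, adjusted p = 0.0544) missed the threshold, as did the interaction of 0.82 ± 0.24 (limma, adjusted p = 0.0544). The change with Axl loss in resistant cells was called in the table of the pair of groups (0.48, limma, adjusted p = 0.0333), after spike-in centring (0.87, limma, adjusted p = 0.0102) and without the replicate block (limma, adjusted p = 0.00999).

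PLOD3 (ENSG00000106397.12, chromosome 7, 101205977 to 101218420, minus strand), which also adds sugars to hydroxylysine, had values of 73, 94 and 72 in naïve SNU449, 120, 107 and 144 in SNU449-Rego, 77, 74 and 77 in naïve SNU449-Axl- and 72, 66 and 61 in resistant SNU449-Axl- cells. SNU449-Rego was above the other groups without overlap. With Axl loss in resistant cells PLOD3 was lower by a log2 change of -0.88 ± 0.19 (limma, adjusted p = 0.0134), and with Rego resistance in SNU449 the change was 0.63 ± 0.19 (limma, adjusted p = 0.0553). The interaction was 0.82 ± 0.27 (limma, adjusted p = 0.088). The call was lost without replicate 2 (adjusted p = 0.0787) or 3 (adjusted p = 0.0804) of resistant SNU449-Axl- or replicate 3 of SNU449-Rego (adjusted p = 0.0833), and after spike-in centring (-0.59, adjusted p = 0.0909). PLOD1 ranged from 220 to 364 and was called in no comparison.

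Lysyl oxidases were represented by 4 genes, of which LOX and LOXL4 had mean normalised counts under 3 and were at or near the low end. LOXL1 (ENSG00000129038.16, chromosome 15, 73925989 to 73952137, plus strand), known for its part in elastic fibres, had values of 77, 62 and 57 in naïve SNU449, 86, 96 and 113 in SNU449-Rego, 48, 49 and 38 in naïve SNU449-Axl- and 38, 42 and 49 in resistant SNU449-Axl- cells. SNU449-Rego was highest, naïve SNU449 lay in between, and both SNU449-Axl- groups were lower without overlap. LOXL1 was lower after Axl loss in resistant cells by a log2 change of -1.17 ± 0.20 (limma, adjusted p = 0.00232), kept in each omission of 1 library, and the table of the pair of groups gave -0.78 (limma, adjusted p = 0.00114). The change with Axl loss in naïve cells was -0.53 ± 0.20 (limma, adjusted p = 0.132), that with Rego resistance in SNU449 was 0.59 ± 0.20 (limma, adjusted p = 0.0904), and the interaction was 0.65 ± 0.29 (limma, adjusted p = 0.215). LOXL2, which cross-links type IV collagen, ranged from 676 to 1032 and was called in no comparison.

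SPARC, a secreted protein that binds collagen, had values of 2074, 2122 and 934 in naïve SNU449, 897, 903 and 1147 in SNU449-Rego, 707, 998 and 1017 in naïve SNU449-Axl- and 835, 574 and 1007 in resistant SNU449-Axl- cells. Replicates 1 and 2 of naïve SNU449 were above all other libraries, and replicate 3 was not. SPARC was called in no comparison.

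**Figure D4:**
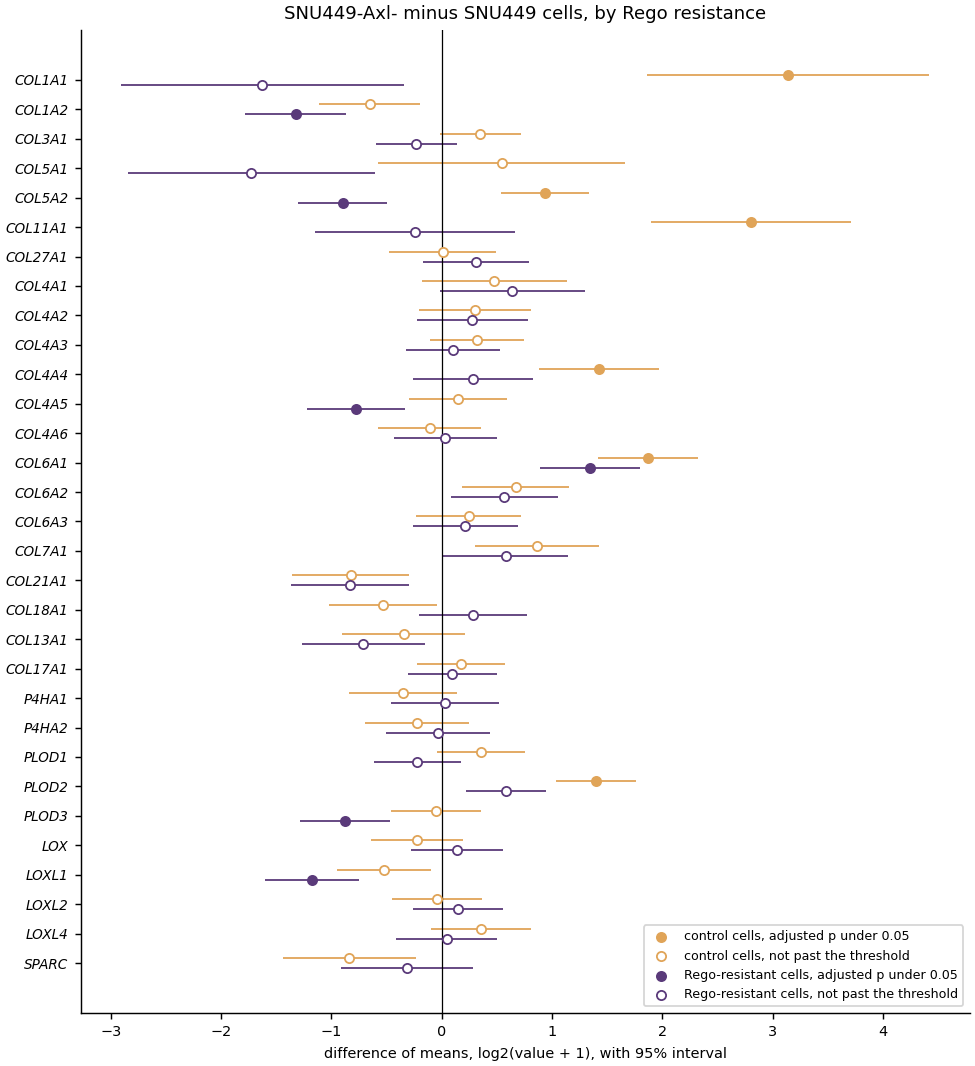
Log2 difference between SNU449-Axl- and SNU449 cells for all 31 members, with 95% intervals, in naïve control cells (orange) and Rego-resistant cells (violet). Filled points have an adjusted p under 0.05. All called points of naïve cells lie above 0, and of the called points of resistant cells COL6A1 alone lies above 0.

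A list of 41 other genes of collagen folding, export, cleavage, fibril assembly and collagen binding held 33 genes of the table. With Rego resistance in SNU449, 8 were called (5 higher, 3 lower), and in SNU449-Axl- 4 (2 higher, 2 lower). With Axl loss in naïve cells 5 were called (3 higher, 2 lower), with Axl loss in resistant cells 3 (1 higher, 2 lower), and for the interaction 6 (4 with a more positive Rego effect in Axl-proficient cells, 2 with a more negative one). In the same order, 7.81%, 4.35%, 7.45%, 4.37% and 5.87% of all genes were called. The median log2 changes of the list were 0.188, 0.028, 0.166 and 0.101 for the comparisons between groups and 0.271 for the interaction, against -0.000102, 0.0066, 0.0035, 0.0139 and -0.0106 over all genes.

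FN1, fibronectin, on which cells assemble collagen fibrils, had the largest changes of this list. Its values were 2491, 1437 and 2923 in naïve SNU449, 336, 453 and 650 in SNU449-Rego, 559, 377 and 463 in naïve SNU449-Axl- and 2543, 4850 and 1351 in resistant SNU449-Axl- cells. FN1 was thus low in the 2 groups in which COL5A2 was high, and high in the 2 groups in which COL5A2 was low. The log2 change of FN1 was -2.24 with Rego resistance in SNU449 (limma, adjusted p = 0.000686) and 2.47 in SNU449-Axl- (limma, adjusted p = 0.000544), and Axl loss gave -2.25 in naïve (limma, adjusted p = 0.000867) and 2.46 in resistant cells (limma, adjusted p = 0.000489). The interaction was -4.71 ± 0.52 (limma, adjusted p = 3.44e-05).

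P3H2, a prolyl 3-hydroxylase, had values of 174, 198 and 324 in naïve SNU449, 437, 433 and 311 in SNU449-Rego, 729, 577 and 544 in naïve SNU449-Axl- and 392, 441 and 397 in resistant SNU449-Axl- cells. P3H2 was higher with Axl loss in naïve cells by a log2 change of 1.45 (limma, adjusted p = 0.000803), and the interaction was 1.37 (limma, adjusted p = 0.0169). COLGALT1, which adds galactose to hydroxylysine, fell from 432, 406 and 315 in naïve to 170, 164 and 171 in resistant SNU449-Axl- cells (log2 change -1.17, limma, adjusted p = 0.00325), with an interaction of 1.15 (limma, adjusted p = 0.0282).

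FKBP14, a prolyl isomerase of the endoplasmic reticulum, was 123, 126 and 111 in naïve SNU449 and 218, 186 and 221 in naïve SNU449-Axl- cells (log2 change 0.79, limma, adjusted p = 0.00951). MRC2, an endocytic collagen receptor, was 116, 159 and 164 in naïve and 268, 382 and 211 in resistant SNU449-Axl- cells (0.94, limma, adjusted p = 0.0389). Of the small proteoglycans that bind fibrils, LUM fell from 53, 53 and 44 to 23, 22 and 23 with Rego resistance in SNU449 (-1.10, limma, adjusted p = 0.000595). BGN was 23, 20 and 22 in naïve SNU449, 32, 57 and 46 in SNU449-Rego and 23, 20 and 22 in resistant SNU449-Axl- cells (0.99 with Rego in SNU449, limma, adjusted p = 0.00538, and -0.99 with Axl loss in resistant cells, limma, adjusted p = 0.00971). ITGA11, a subunit of a collagen-binding integrin, was 37, 34 and 36 in SNU449-Rego and 21, 22 and 21 in resistant SNU449-Axl- cells (-0.71, limma, adjusted p = 0.013). The values of BGN and ITGA11 outside SNU449-Rego are at the low end. ITGA11 had a mean normalised count of 2.03, and its SNU449-Rego values were only just above the low end.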

How the data were processed

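The 12 QuantSeq 3′ libraries, 3 per group, came from SNU449 cells with or without Axl, each naïve or resistant to Rego. The authors trimmed reads (cutadapt 4.0), aligned them (STAR 2.5.3a, GRCh38, GENCODE annotation, spike-ins), counted them per gene and ran DESeq2, whose design held the date of preparation. The deposited library values were read as scores, made by the authors separately for each of 8 tables as 2 raised to the variance-stabilised level without the preparation effect, rounded. This reading is inferred from the methods and the values, and when each library was prepared is not given in the sources used here. That the removed effect follows the replicate number was inferred from the values. They are not counts. The deposited mean normalised count of a gene, read as signal, is the authors' average of size-factor-scaled counts. The authors' fold changes and p-values in the same tables were not used, and 0 columns belonged to other samples.

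For the main fit, the 12-library table on the Axl backgrounds was used. Levels, as log2(value + 1), were fitted in R 4.3.3 by limma 3.58.1, with lmFit and a mean-variance trend in eBayes, for 4 groups with the replicate number as a block, since the study had preparation in its design. The replicate-number means of a gene differed from its overall mean by a median of 0.000527 to 0.00054, as removal of an effect along this number leaves it, and deviations of same-numbered libraries correlated between -0.542 and 0.0269 across genes over 18 pairs. P-values were adjusted by Benjamini and Hochberg over 15601 genes, without 32 spike-in RNAs, and no gene was filtered out. Mean normalised counts per group were solved from the 6 pairwise tables by non-negative least squares, with a median error of 0.284% over 5982 genes, all with higher counts than COL4A4.

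Members with a call in at least 1 comparison are described with all values, the others by level. Of the other pathway genes, up to 3 called genes with the largest change per comparison are named. The members and lists were chosen with earlier results of these data known. Names and identifiers are those of the tables, and coordinates are those of GENCODE on GRCh38. Promoter windows were taken from RefSeq (GRCh38.p14). Alternatives were a fit without the block, the pairwise tables, the other table over all libraries, no pseudocount, a minimum count of 10, upper-quartile scaling, spike-in centring and omission of each library, and, added after the data were seen, omission of 2 libraries together. Depth per library is unknown, so that no interval that needs it is given.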

Additional observations from a re-analysis of the deposited data

Results flagged for a closer look

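The effect of Rego resistance differed between the Axl backgrounds by the interaction term for 3 members, as log2 difference (SNU449 minus SNU449-Axl-). It was 3.05 for COL11A1 (limma, adjusted p = 0.00578), 4.76 for COL1A1 (limma, adjusted p = 0.00268) and 1.83 for COL5A2 (limma, adjusted p = 0.000499), against 5.87% of all genes called. COL5A2 was called in opposite directions in the backgrounds. For COL11A1 the change was 0.15 in SNU449, which was not called (limma, adjusted p = 0.888), and -2.89 in SNU449-Axl-. COL11A1 was at or near the low end in both SNU449 groups, so that a fall there could not be seen. Resistant SNU449-Axl- cells were at the low end too, and only naïve SNU449-Axl- cells lay well above it. For COL1A1 the change was 1.97 in SNU449, which was not called (limma, adjusted p = 0.0558), and -2.79 in SNU449-Axl-. The COL1A1 change in SNU449 was called after spike-in centring (limma, adjusted p = 0.0260) and in 3 of 12 omissions of 1 library. All 3 interaction calls were kept in each omission of 1 library, with values of 2.14 to 3.71 for COL11A1, 3.58 to 5.72 for COL1A1 and 1.67 to 2.03 for COL5A2.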

How the results depend on the processing

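No log2 change of a member that was followed through the alternatives turned its direction. The small changes of COL11A1 with Rego in SNU449 (0.15) and of COL1A2 with Rego in SNU449-Axl- (0.03) were not followed. Of the followed values of single members under settings other than omissions, 286 stayed on their side of the threshold. A call was lost by 5 called values and gained by 21 others. Under omissions of libraries these numbers were 535, 45 and 18. Without the replicate block, 10 members were called with Rego in SNU449, 7 with Rego in SNU449-Axl-, 11 with Axl loss in naïve cells, 8 with Axl loss in resistant cells and 7 for the interaction, and 2175, 1552, 2182, 1503 and 1826 of all genes, more than with the replicate block in each. Under the removal of the preparation effect by the authors, that fit counts degrees of freedom already spent. In the pairwise tables, 10 members were called with Axl loss in resistant cells, and 603, 603 and 1160 of all genes with Rego in SNU449, Axl loss in naïve and Axl loss in resistant cells, with the cause not tested. No pairwise table gives the interaction.

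Spike-in centring moved the median log2 change of all genes to 0.0476 (Rego in SNU449), 0.144 (Rego in SNU449-Axl-), 0.206 (Axl loss, naïve), 0.306 (Axl loss, resistant) and -0.101 (interaction). In the same order, the calls higher and lower were 612 and 380, 585 and 110, 1257 and 231, 1731 and 68 (1799 in all), and 265 and 460. In the main fit they were 673 and 546, 396 and 282, 628 and 535, 381 and 301, and 461 and 455. With 1 library left out, the members called were 3 to 6 (Rego in SNU449, 3 without SNU449-Rego replicate 3), 3 to 8 (Rego in SNU449-Axl-, 3 without replicate 1 or 2 of its resistant cells), 6 to 8 (Axl loss, naïve), 3 to 8 (Axl loss, resistant, 3 without resistant SNU449-Axl- replicate 2) and 3 to 5 (interaction, 5 without replicate 1 of either naïve group). All genes called ranged from 740 to 1299, 205 to 891, 540 to 1275, 219 to 826 and 523 to 922. Without replicate 3 of naïve SNU449 and replicate 1 of naïve SNU449-Axl- together, the interaction called 5 members and 702 of all genes, and Axl loss in naïve cells called 703 of all genes and Axl loss in resistant cells 908.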
